A study of Mus musculus with 56 samples.

Results

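A pair of technical replicas made by IVTIII, which is 3 rounds of T7-based linear amplification, was compared on 2 dye-swapped arrays of a series of 56. Both replicas were cRNA amplified in parallel reactions from the same total RNA of OV, a line of mouse ovarian surface epithelial cells. The input was 10 ng per reaction by the series' design, whereas the labels of both arrays state the same figure in μg. Replica 1 was coupled to Cy3 and replica 2 to Cy5 on hybridization 1, and the dyes were exchanged on hybridization 2. Log2 ratios were turned to replica 1 over replica 2, so that a positive value means more signal from replica 1. The sources differ on which dye is the numerator, and Cy5 over Cy3 is the likely reading. With the reverse reading each log2 ratio changes sign and the counts of higher and lower probes change places, while the sizes and the correlations between turned ratios stay as given. Of 21766 probes that were not control spots, 7139 had a value on both arrays and were compared, 2901 had a value on hybridization 1 only, 701 on hybridization 2 only and 11025 on neither. The compared probes included 6141 with 1 gene symbol, for 5941 genes, 29 with several symbols and 969 with none.

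In T7-based amplification, mRNA is reverse transcribed from an oligo(dT) primer that carries the T7 promoter. T7 RNA polymerase then transcribes many cRNA copies of each cDNA. In later rounds the cRNA is reverse transcribed again from random primers, and only a small part of each round's product enters the next. Both replicas came from the same RNA, so the design compares amplifications and not cells. Labelling and hybridization also enter each ratio.

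The other arrays used here were 1 IVTIII self-self array, on which the same OV cRNA carried both dyes, 4 IVTIII arrays of OV against 3T3 fibroblasts, 6 replica arrays of OV amplified by GA (global PCR amplification), SMART (template-switching PCR) and SM37 (a modified SMART), with 2 arrays for each method, and 1 array of unamplified cDNA replicas made from 100 μg of OV RNA. Cell markers were read on the IVTIII arrays of OV against 3T3. They can check the OV label and the dye reading only together, because a change in either would turn the signs. *Wt1*, a transcription factor of the mesothelium and ovarian surface, had log2 ratios of 1.53, 1.55, 1.31 and 1.76 there, and *Krt8*, an epithelial keratin, had 1.21, 1.55, 1.01 and 1.42. Both were higher in OV on all 4 arrays under the likely dye reading, and would be lower under the reverse. Of 16 measured markers of ovarian surface epithelium and mesothelium 11 had values on all 4 arrays. Of these, 8 were higher in OV on each array, *Calb2* was lower on each and 2 were mixed, with means between -0.28 and 3.18 (*Bnc1*). Of 6 fibroblast markers with values 5 were lower in OV on each array and 0 higher. Between the IVTIII replicas *Wt1* had -0.07 and -0.04 and *Krt8* had 0.20 and 0.36 on hybridizations 1 and 2. The averaged ratios of the 16 ovarian surface and mesothelium markers ran from -1.43 (*Tbx18*) to 0.40 (*Muc16*). Those of the measured fibroblast markers ran from -0.20 (*Col3a1*) to 0.40 (*Fgf10*).

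Most probes had ratios near 0 between the amplifications, and a small set was far from 0 on both arrays. The averaged ratio was within 0.2 log2 units of 0 for 5101 probes (71.5%), and its median size was 0.107. At the other end, 126 probes (1.76%) differed by more than 2-fold, 60 (0.84%) higher and 66 (0.924%) lower in replica 1. On hybridization 1 alone 200 of the compared probes were over 2-fold, and 119 on hybridization 2 alone. Spread over probes was measured by the coefficient of repeatability (CR), the SD of log2 ratios multiplied by 2. It was 0.658 and 0.636 on the IVTIII replica arrays, against 0.753 and 0.855 for GA, 0.469 and 0.365 for SMART, and 0.747 and 0.756 for SM37. By CR both IVTIII arrays thus lay above SMART and below GA and SM37. The order against SMART and GA depended on the measure. For ratios averaged over both arrays, the SD over compared probes with a value was 0.304 for IVTIII and 0.258 for GA. It was 0.138 for SMART and 0.359 for SM37, so IVTIII there lay above GA. By the median absolute deviation, scaled to an SD and multiplied by 2, IVTIII had 0.347 and 0.408 and SMART 0.457 and 0.349. GA had 0.469 and 0.664 and SM37 0.602 and 0.632. The sets of probes were also unlike, with 10040 and 7840 on the IVTIII arrays and 5647 to 12545 on the others. The arrays of a method shared 1 pair of amplifications, so these differences were not tested. The CR was 0.269 on the self-self array and 0.261 on the array of unamplified replicas.

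Limma called 195 of 7139 probes (2.73%) at a log odds above 0, of which 78 (1.09%) were higher and 117 (1.64%) lower in replica 1. An adjusted p under 0.05 was reached by 343 probes (4.8%), 153 (2.14%) higher and 190 (2.66%) lower. Both called and over 2-fold were 97 probes (1.36%), 39 (0.546%) higher and 58 (0.812%) lower. The count of calls moved with the settings, to 107 in a fit with the replica arrays of the other methods and the unamplified array, 117 with the spread of the IVTIII arrays of OV against 3T3 as prior, and 497 at a prior proportion of 0.05 in place of 0.01. The adjusted p-values of the 195 in limma lay between 0.0165 and 0.0331. All 195 had the same sign on both arrays, compared with 63.8% of all probes, and none was below 0.637 in size on either array. The calls were made from these same values, so this follows from the call and is no separate evidence. With 2 arrays the test had 1 residual degree of freedom per probe and rested on the spread pooled over probes. Both arrays carried the same pair of cRNAs, so the p-values measure the spread between hybridizations and not between further amplifications. Among the called probes 160 had 1 gene symbol, for 159 genes, and 35 had none. The nearest probes inside the threshold were those of *2610528B01Rik* (1.26), *Timm8a1* (-0.87) and *Gid4* (-0.92), and the nearest outside it were those of *Rap2c* (-0.69), *Tbx18* (-1.43) and *Neo1* (-0.67).

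**Figure D1:**
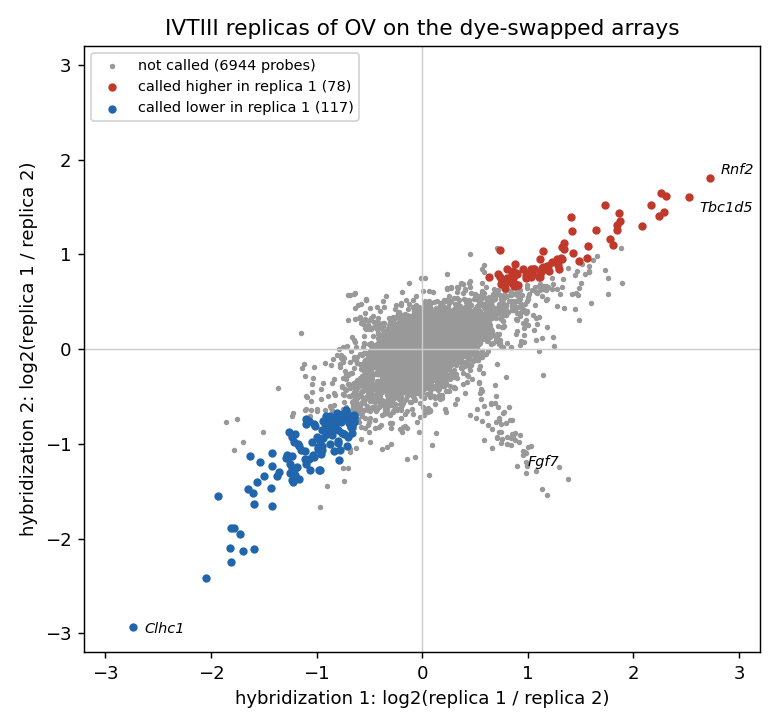
Log2 ratio of IVTIII replica 1 over replica 2 on hybridization 2 (vertical) against hybridization 1 (horizontal), 1 point per probe. The 78 probes called higher lie in the upper right corner and the 117 called lower in the lower left, and a narrow arm of probes that were not called runs to the lower right, where *Fgf7* is marked.

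The called genes with the largest ratios are described by known role, a grouping made after ranking that was not tested, and both directions hold genes of membrane traffic and RNA binding. Highest in replica 1 was *Rnf2*, the catalytic E3 ligase of Polycomb repressive complex 1, with log2 ratios of 2.72 and 1.81 on hybridizations 1 and 2, an average of 2.26 ± 0.23 (moderated SE) and a 4.80-fold difference. *Cdc73*, a subunit of the PAF1 transcription elongation complex, had 1.88 and 1.35. *Hdac1*, a histone deacetylase, had 1.49 and 0.93. It was not among the 15 highest but was named from the list of chromatin complexes, and its log odds was 0.076. All were higher in replica 1 on each array.

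Genes with roles in membrane traffic followed. *Tbc1d5*, a Rab GTPase-activating protein that acts with retromer, had 2.52 and 1.60. *Vamp3*, a SNARE of recycling endosomes, had 2.29 and 1.45. *Man1a2*, a Golgi mannosidase that trims N-glycans, had 1.86 and 1.44. In each of these genes hybridization 1 gave the larger value, as it also did for *Sh3gl3* (an endophilin, 1.85 and 1.31), *Cd164* (a sialomucin, 1.85 and 1.26) and *Tm9sf2* (a transmembrane 9 family protein, 1.81 and 1.09).

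The remaining genes with the highest ratios had no common role. *Sav1*, the scaffold of the Hippo kinases, had 2.31 and 1.61. *Npnt*, a matrix ligand of integrin, had 1.78 and 1.16, and *Adssl1*, the muscle form of adenylosuccinate synthase, had 1.41 and 1.39. *Vmn1r14*, a vomeronasal receptor, had 2.26 and 1.65. The RNA-binding protein gene *Rbm12* averaged 1.69 ± 0.20, the zinc finger gene *Zswim6* 1.45 ± 0.13 and *Mtdh* (metadherin) 1.33 ± 0.14 (moderated SE, 2 arrays).

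The largest differences in the other direction were in *Clhc1*, which codes for a protein with a clathrin heavy chain linker domain, at -2.73 and -2.94 and an average of -2.84 ± 0.10, and in *Hells*, a chromatin remodeler needed for DNA methylation, at -2.04 and -2.42. The difference was 7.14-fold for *Clhc1* and 4.69-fold for this *Hells* probe. Both were lower in replica 1 on each array.

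Of the genes with roles in RNA processing and translation, *Srsf1*, an SR splicing factor, had -1.42 and -1.66 at 1 of its 3 probes. *Rnu11*, the U11 small nuclear RNA of the minor spliceosome, had -1.65 and -1.48. *Rbm12b2*, which codes for an RNA-binding protein, had -1.78 and -1.89. *Mrps10* and *Rpl37*, of the mitochondrial and the cytosolic ribosome, had averages of -1.45 ± 0.09 and -1.42 ± 0.09, and *Dph6*, an enzyme of diphthamide synthesis on elongation factor 2, had -1.82 and -2.10. All of these were lower in replica 1 on both arrays.

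Further genes of the lowest group act in membranes, the cytoskeleton and ubiquitination. *Ric1*, part of a Rab6 exchange factor at the Golgi, had -1.70 and -2.13. *Cln8*, an endoplasmic reticulum protein mutated in a form of neuronal ceroid lipofuscinosis, had -1.60 and -1.52. *Sec61a2*, a subunit of the protein translocon, had -1.38 and -1.34. *Ckap5*, a microtubule polymerase, averaged -1.36 ± 0.12, the F-box gene *Fbxo24* -1.74 ± 0.12, *Wdr53* -1.37 ± 0.15 and *C2cd5* -1.48 ± 0.09.

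The sizes on the arrays did not match equally in both directions. Of the 78 probes called higher in replica 1, 72 (92.3%) had a larger value on hybridization 1, with medians of 1.13 and 0.85 on hybridizations 1 and 2. Of the 117 called lower, 61 (52.1%) had the higher value on hybridization 1, and the median averaged ratio was -0.99. Over all probes the share was 51.9%. There were 29 probes of more than 2-fold that were not called. Among these were *Itih5* (1.89 and 0.70), *Cyld* (1.48 and 0.57), the noncoding *Neat1* (1.45 and 0.78) and *Wnt3* (-0.97 and -1.67), named after their values were seen.

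**Figure D2:**
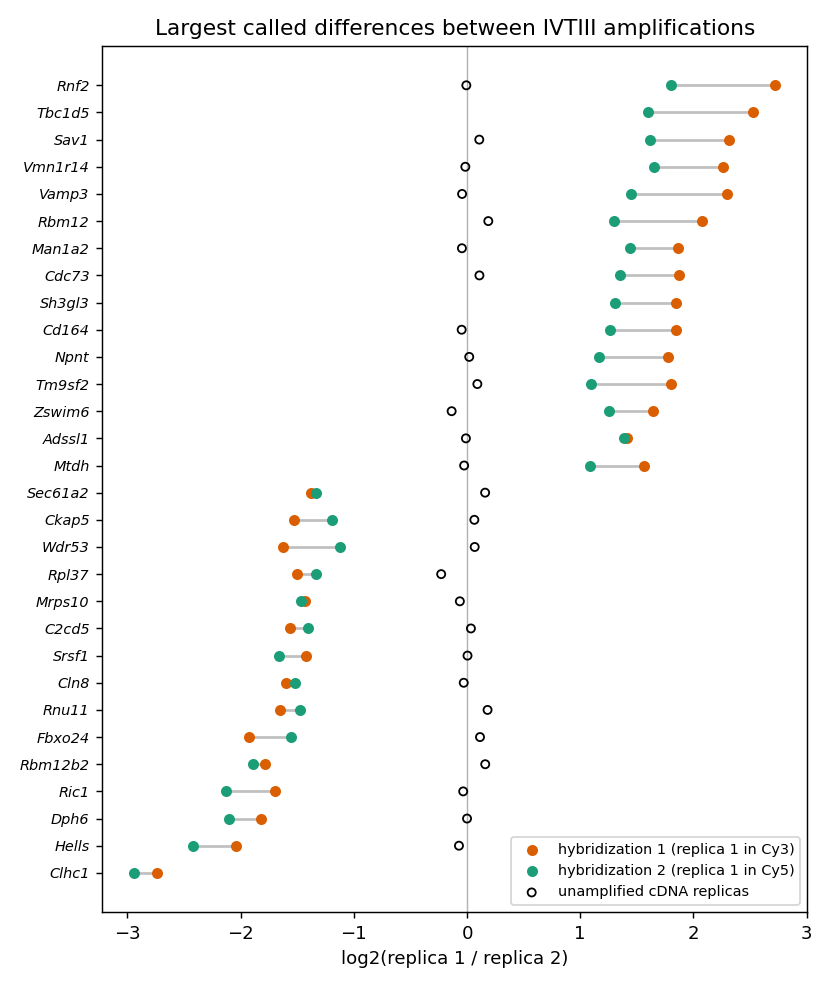
Log2 ratio of replica 1 over replica 2 for the 15 highest and 15 lowest called genes: filled points are the IVTIII hybridizations, joined by a line, and open points the array of unamplified cDNA replicas. The unamplified ratios lie between -0.23 and 0.19 for the 27 genes that have one.

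Unamplified ratios of the same genes were near 0. The array of unamplified replicas had a value for 13 of the 15 highest genes, between -0.14 and 0.19, and for 14 of the 15 lowest, between -0.23 and 0.18. *Rnf2* was at -0.01 and this *Hells* probe at -0.07. Over 181 called probes the SD of the unamplified ratio was 0.123, against 0.118 over all 6623 compared probes with a value. In a limma fit of all replica arrays at 10 ng with the unamplified array, the difference between the IVTIII and the unamplified ratio had an adjusted p under 0.05 for 0 of 4422 probes (0.0%), with 127 at an unadjusted p under 0.05. The estimates were 2.27 for *Rnf2* and -2.16 for *Hells*, with adjusted p-values of 0.65 and 0.19 in that limma fit. Its spread was shared with the GA, SMART and SM37 replicas and its unamplified group had 1 array. A single array has no spread between arrays, so in the weighted fit it was assigned the smallest spread of the amplified methods. When arrays were weighted by the spread of their method, limma called 61 probes, 30 higher and 31 lower.

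On the IVTIII self-self array 61 of the called probes had a value. The SD was 0.112, with a range of -0.46 to 0.15, against 0.133 over 2314 compared probes. That array carried the same cRNA in both dyes, so it cannot show a difference between amplifications. The calls were made across a dye swap, which disfavours probes whose ratio stays with the dye. The lower SD is therefore no separate evidence. Coverage on that array differed by direction: it gave a value for 19.2% of the probes called higher, 39.3% of those called lower and 32.4% of all compared probes. In the replicas of other methods the called probes had averaged ratios with an SD of 0.343 for GA (92 probes), 0.119 for SMART (88) and 0.270 for SM37 (17), against 0.258, 0.138 and 0.359 over all compared probes with a value.

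On the 4 IVTIII arrays of OV against 3T3, which the calls did not use, the same genes separated hybridizations 1 and 2 from 3 and 4. *Rnf2* had log2 ratios of OV over 3T3 of -1.11, -1.09, -3.17 and -2.91 on hybridizations 1 to 4. *Rbm12* had 1.43, 1.55, -0.25 and -0.26, and *Man1a2* had 0.79, 1.03, -0.55 and -0.41. In each, OV was relatively higher on hybridizations 1 and 2 than on 3 and 4, as replica 1 was over replica 2. The reverse held for *Ric1*, at -2.40, -2.26, -0.33 and -0.20, and for the low *Srsf1* probe, at -0.49, -0.29, 0.68 and 1.33. Thus *Rbm12*, *Man1a2* and *Srsf1* were higher in OV on a pair of the arrays and higher in 3T3 on the other pair.

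This held for every called probe with a value on all 4 arrays. The mean of hybridizations 1 and 2 minus that of 3 and 4 was above 0 for 42 of 42 probes called higher in replica 1, with a median of 0.81, and below 0 for 69 of 69 called lower, with a median of -0.77. Over all 4105 compared probes with these values 46.6% were above 0 and 53.4% below 0, and the median was -0.02. The means of the pairs had opposite signs for 40 of the 111 called probes (36.0%), against 16.8% of all 4105, and differed by more than 2-fold for 30 (27.0%), against 1.32% of all. Pearson's r between this difference and the averaged replica ratio was 0.955 over the called probes, 0.609 over the 3994 that were not called and 0.692 over all of them, as a description across probes of the same arrays, which are not independent replicates. Over all 4105, r was -0.144 for hybridizations 1 and 4 minus 2 and 3, and 0.065 for 1 and 3 minus 2 and 4, the contrast between dyes. The labels do not say which amplification of OV went on which of these arrays, and differences between the 3T3 amplifications enter the same contrast. For GA the same r between replica ratio and pair difference was 0.698 (5714 probes), for SMART -0.295 (7717) and for SM37 -0.0783 (1830).

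**Figure D3:**
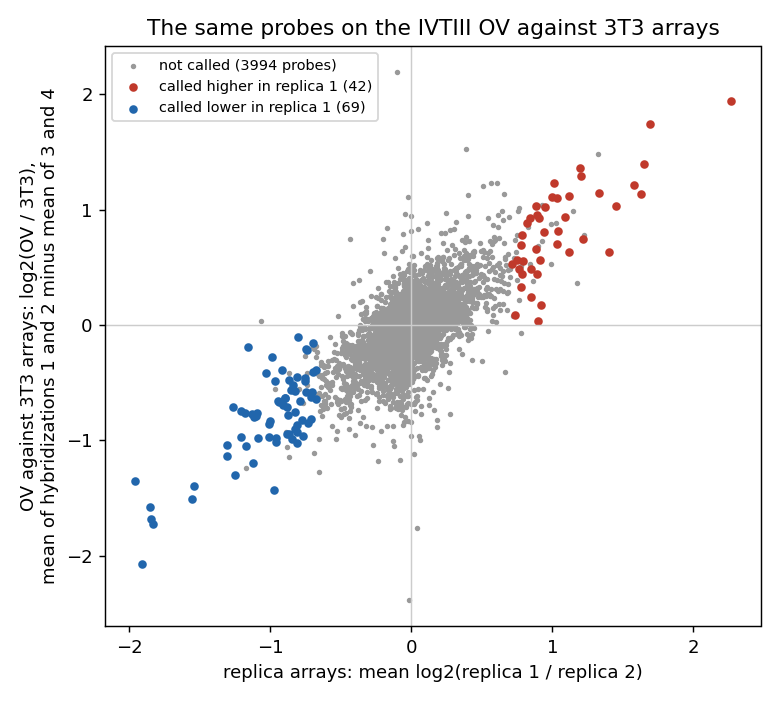
For each probe, the mean log2 ratio of OV over 3T3 on hybridizations 1 and 2 minus that on 3 and 4 of the IVTIII arrays (vertical), against the averaged log2 ratio of IVTIII replica 1 over replica 2 (horizontal). All 42 probes called higher with a value lie above 0 and all 69 called lower lie below 0.

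Missing values followed the same division. Of the probes called higher in replica 1, 21 of 78 (26.9%) had values on both hybridizations 1 and 2 of OV against 3T3 and on neither 3 nor 4, and 0 had the opposite pattern. Of those called lower, 23 of 117 (19.7%) had values on hybridizations 3 and 4 and on neither 1 nor 2, and again 0 had the opposite. Over all compared probes these shares were 6.22% and 3.42%. *Tbc1d5* and *Sav1* had values of 2.11 and 2.41, and of 1.62 and 1.61, on hybridizations 1 and 2 only. The lowest *Hells* probe had 1.30 and 2.15, *Mrps10* 0.57 and 1.46 and *Rpl37* 0.91 and 1.59, on hybridizations 3 and 4 only. The second *Hells* probe had -0.68 on hybridization 2, and 0.02 and 0.36 on 3 and 4.

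The medians of gene lists lay near 0. Each of 34 gene lists had a median ratio between -0.05 and 0.12, and the median over all 5941 genes was 0.00. In all, 23 of 982 listed genes (2.34%) had a called probe, 136 of 4959 in no list (2.74%), and 159 of all 5941 (2.68%). The lists differed in the spread of their members around 0.

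The ribosomal proteins were the most fully covered group. Of 39 large-subunit genes on the array 35 were measured (89.7%), and of 22 small-subunit genes 19 (86.4%), against 39.4% of all genes. No small-subunit gene was called, and their ratios lay between -0.17 for *Rps29* and 0.18 for *Rpsa*, with an SD over genes of 0.103 against 0.293 over all genes. *Rpl37* was the single large-subunit gene called. The next list of the translation machinery, the mitochondrial ribosomal proteins, had 52 of 75 genes measured and 1 called, *Mrps10*. Of 40 initiation and elongation factors 1 was called, *Eif3j1*, a subunit of initiation factor 3, at an average of -0.96, and of 19 aminoacyl-tRNA synthetases 0, with *Vars2* at -0.48 and *Lars* at -0.40.

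The splicing list had 3 of 42 genes called (7.14%), against 2.68% of all genes, and all 3 calls were lower in replica 1. Besides *Srsf1*, *Hnrnpc*, which binds nascent transcripts, had -0.90 and -0.85, and *Hnrnpab* had -0.69 and -0.72 at 1 of its 2 probes. The other *Hnrnpab* probe averaged 0.06 and the other *Srsf1* probes 0.85 and -0.04, and these were not called. The median of the list was -0.03. Of 98 zinc finger proteins 6 were called (6.12%), against the same 2.68%. Neither share was tested against that of all genes. *Zfp445*, an imprinting regulator, had 1.43 and 1.01 and *Zbtb21* had 1.18 and 0.84, both higher in replica 1. *Zfp704* (-0.97 and -1.28), *Zfp82* (-1.07 and -1.16), *Zfp275* (-0.93 and -0.76) and *Zfp248* (-0.89 and -0.79) were lower.

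Polycomb and other chromatin complexes had the widest SD of all lists, 0.468 over 33 genes, while their median size of 0.0823 was below that of all genes, 0.109. The lowest of them, *Cbx6*, was at -0.29, and the called ones were *Rnf2* and *Hdac1*. *Cenpf*, a kinetochore protein, was the call among 26 mitotic genes, at 1.32 and 1.08. The list had a median of 0.12. Of 33 replication genes 0 were called, with *Orc4* of the origin recognition complex at 0.96 and 0.42 and the primase subunit *Prim1* at -0.74 and -0.48. Histones had the lowest SD, 0.0686 over 9 genes.

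The share of 2.68% over all genes corresponds to few or no calls in lists of this size, and nothing is read from the zeros. *Eno2*, the neuronal enolase, had -1.02 and -0.81 and was the call among 9 glycolysis genes. The respiratory chain had 0 calls among 54 genes, and a median size of 0.146 against 0.109 over all genes. *Ndufb10* had -0.14 and -1.17, and *Ndufa10* had 0.68 and 0.57, with an adjusted p of 0.039 in limma. Proteasome subunits had 0 of 32, chaperones 0 of 42, cholesterol synthesis 0 of 8, the vacuolar proton pump 0 of 10, RNA polymerase II and its general factors 0 of 38, and ubiquitin-conjugating enzymes and cullins 0 of 25, where *Cul4a*, a ligase scaffold, had -0.63 and -1.05 and an adjusted p of 0.044 in limma. Among 82 solute carriers 3 were called: *Slc25a46*, a mitochondrial outer membrane protein (1.03 and 0.85), *Slc16a13* (0.98 and 0.75) and *Slc22a4*, a carnitine and ergothioneine transporter (-0.89 and -0.83). Among 50 small GTPases *Rab28* (-0.85 and -0.91) and *Rab11a*, of recycling endosomes (-0.65 and -0.72), were called.

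**Figure D4:**
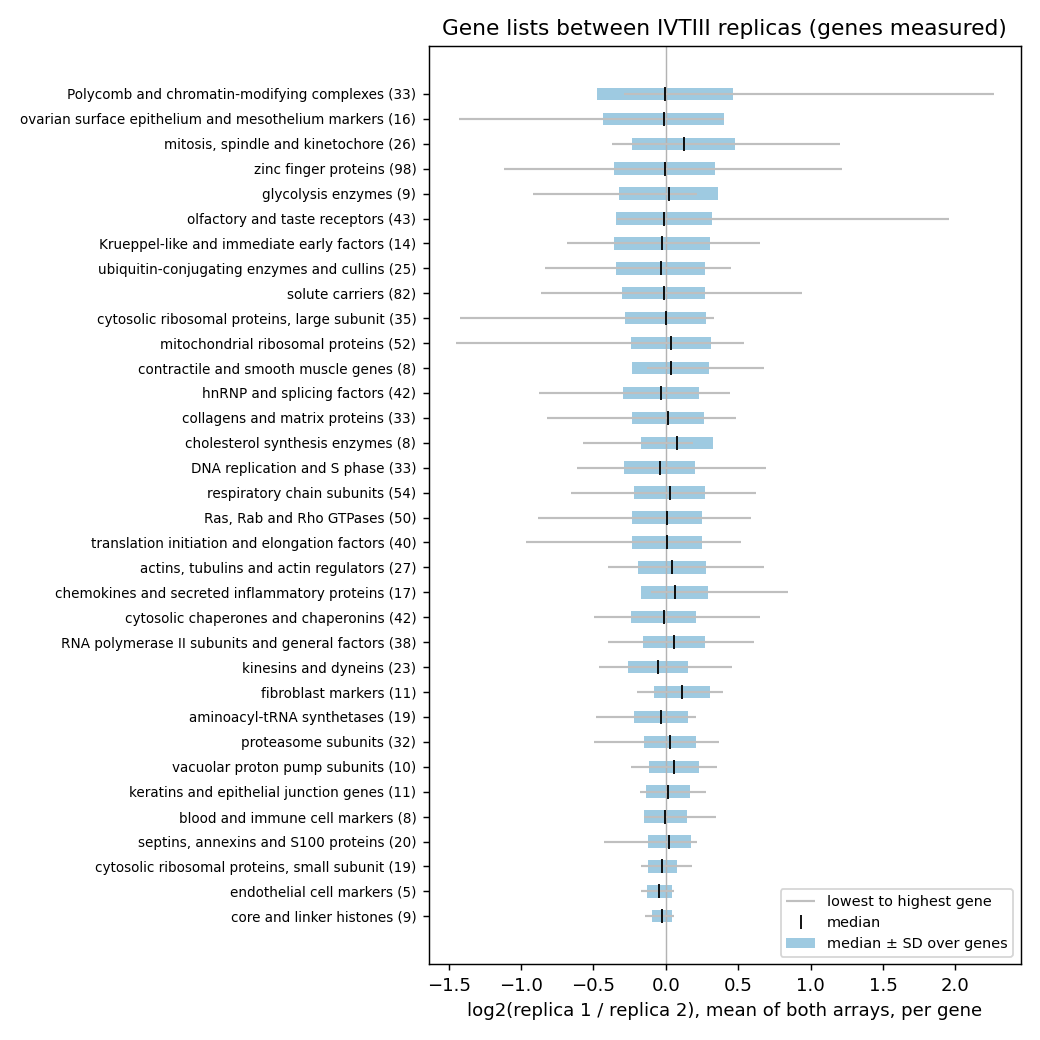
Averaged log2 ratio of replica 1 over replica 2 by gene list, with the number of genes measured in parentheses: ticks are medians, bars the median ± SD over genes, and lines run from the lowest to the highest gene. All medians lie between -0.05 and 0.12, and the bars are widest for chromatin complexes and narrowest for histones.

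The small marker lists are likewise given as values. None was called among 16 genes of ovarian surface epithelium and mesothelium, 11 of fibroblasts, 11 keratins and junction genes, 8 of blood and immune cells and 5 of endothelium. *Tbx18*, a mesothelial and stromal transcription factor, had -1.78 and -1.07 and lay just outside the log odds threshold, with an adjusted p of 0.033 in limma. The hemoglobin gene *Hba-a1* was at -0.02 and -0.07. In the matrix list *Col18a1*, a basement membrane collagen, was called at -0.79 and -0.86 among 33 genes, and 0 were called among 27 actin and tubulin genes and 8 contractile genes, with *Tpm1*, a tropomyosin in both lists, at 0.78 and 0.58. Chemokines (17 genes, *Cxcl2* at 1.09 and 0.60), Krüppel-like and immediate early factors (14, *Dusp1* at -0.34 and -1.03), kinesins and dyneins (23) and septins, annexins and S100 proteins (20) had 0 calls. Of 185 olfactory, vomeronasal and taste receptors on the array 43 were measured (23.2%), and *Vmn1r14* was the call among them.

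Families formed from the letters of the symbol, with at least 10 genes measured, showed the same contrast between wide and narrow groups. Among 50 such families the SD was highest for *Rbm* genes, which code for proteins with RNA-binding motifs (0.732 over 14 genes, with 3 called), followed by symbols starting with *Sh* (0.596 over 13), *Fbxo* (0.550 over 12), *Rnf* (0.507 over 27) and *Wdr* (0.458 over 12). In each of these 1 to 3 genes had called probes and the median ratio lay between -0.07 and 0.09. Their median sizes, from 0.107 (*Wdr*) to 0.195 (*Rbm*), were nearer to the 0.109 of all genes, so few genes made these SDs wide. The SD was lowest for *Sprr* (0.0578 over 10), *Cyp* (0.0830 over 23), *Rps* (0.102 over 20), symbols of *H* and a number (0.120 over 17) and *Olfr* (0.131 over 39), with 0 calls in each. Median sizes there lay between 0.0345 (*Sprr*) and 0.0691 (*Rps*). The share of 2.68% called over all genes corresponds to few or no calls in families of this size, and nothing is read from the zeros.

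Among 170 genes with several probes, 88 (51.8%) had the same sign at all of them. The same held for 6 of the 12 genes with a called probe, of which *Hells* was the one with both probes called, at -2.23 and -1.14. The others had 1 called probe each. *C2cd5* had -1.48 and -0.07, *Tmem86b* had -1.09, -0.01 and 0.03, and *Rbm25*, a splicing regulator, had -0.98 and 0.09. At *Gcc2*, a Golgi tether, the probes pointed opposite ways, at -0.92 for the called one and 1.26 for the other, and at *Srsf1* they had -1.54, -0.04 and 0.85. Over 158 genes with 2 probes each, r between the probes was 0.134, and it was 0.00507 without *Hells*. Where the probes lie in their transcripts was not analysed here.

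Some probes had a large dye part. The dye part is the average of the deposited ratios without turning. It was below -0.5 for 77 probes (1.08%) and above 0.5 for 14. Of either, 0 were called, against 2.73% of all compared probes. A large dye part is a large gap between the turned ratios, which lowers the log odds. The 0 calls are therefore close to fixed by the call rule and are no separate result. The turned ratios had opposite signs on the arrays for 66 of the 77 and 12 of the 14, and the others, such as *Itih5* above, had the same sign on both. *Rab1a*, a GTPase of traffic between endoplasmic reticulum and Golgi, had turned ratios of 1.39 and -1.37. *Arf6*, an endosomal GTPase, had 0.98 and -1.09, and the kinase *Mapk14* had 1.18 and -1.54. With Cy5 over Cy3 as the likely reading, the Cy3 side was brighter at these probes on each array. They were named after their values were seen. The self-self array had a value for 23 of the 77, with a median of -0.58 against 0.01 over all compared probes, and for 10 of the 14, with a median of -0.02. On the IVTIII arrays of OV against 3T3, 8 of the 77 had values and their median dye part was -0.01, with 4 below 0, whereas 11 of the 14 had a median of 0.33 and 0 below 0. By probe number, 59 of the 77 fell into 2 runs, 3003080 to 3003450 and 3004620 to 3004988, where they made up 24.5% of 241 compared probes. Outside these runs the share was 0.261%. The runs were drawn around these same probes, so the share inside is high by construction. The runs held 1 of the 195 called probes, where 2.73% of all compared probes were called. Large dye parts lower the log odds, so nothing is read from this count.

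The called probes were more frequent among those with EXT in their name, 121 of 3413 (3.55%), than among the others, 74 of 3726 (1.99%). CR was 0.695 over the EXT probes and 0.513 over the others. The part of this naming in the calls was not tested.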

How the data were processed

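Each deposited value is the log2 ratio of a spot's dyes, which the authors took after subtracting background and a limma print-tip lowess per array. No further normalization was applied. Intensities were not used here, so depth as signal over background is unknown, and counts of measured probes are given instead. The reason for missing values is not given in the sources used here. The 231 control spots, all named *Gapdh*, were left out.

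Ratios were turned by the dyes in the labels. Probes with a value on both arrays were fitted in limma 3.58.1 (R 4.3.3, lmFit and eBayes, prior proportion 0.01) and called at a log odds (LOD) above 0. Adjusted p-values are Benjamini-Hochberg over all probes compared. Probes of a gene were averaged for lists. Gene symbols came from the platform annotation. Tables and tests used Python 3.11.15 with pandas 2.3.3 and scipy 1.17.1, and figures matplotlib 3.10.9. The fits were tested on simulated data. A planned permutation test of CR between methods is not reported, because the arrays of a method share their amplifications.

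Named genes were the 15 highest and 15 lowest called with 1 symbol that is no clone name, up to 6 called genes per list or else the largest 2, genes with several called probes, and the 5 widest and 5 narrowest symbol families. Members, lists and rules were chosen with earlier results of these data known. The replicas share 1 RNA and are not separate cultures, so p-values measure technical spread. Alternatives covered the prior, array scaling and centring, control spots, the arrays in the fit, genes in place of probes, the fold threshold and leaving out an array. Probe sequences, positions in the transcripts, transcript length and GC content were not analysed here.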

Additional observations from a re-analysis of the deposited data

Results flagged for a closer look

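The control spots were used only in a refit that kept them. Their spread was wider on hybridization 2 of the replicas than on the IVTIII self-self array, and slightly wider on hybridization 1. The SD over *Gapdh* spots was 0.0645 on hybridization 1 (178 spots) and 0.121 on hybridization 2 (217 spots), against 0.0609 on the self-self array (178 spots). A single spot on hybridization 2, at -1.13, was over 2-fold.

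On the IVTIII arrays of OV against 3T3, *Col3a1*, a fibrillar collagen, had -0.95 on hybridization 2 and values near -0.09 on the others. The gap made up 0.991 of its range, which set hybridization 2 apart. Chance flags about 1 in 20 groups of 4. Between the replicas this gene was not called.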

How the results depend on the processing

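The count of 195 calls was 195 with robust variances, 176 after scaling the arrays, 212 after centring, 189 with control spots, 167 for genes and 195 when each array had to pass 1.5-fold in 1 direction. It was 497 at a prior proportion of 0.05, 117 with the prior variance of the IVTIII arrays of OV against 3T3, 107 in a fit of all 10 ng replica arrays with the unamplified array, and 0 with the ratios as deposited (97 at an unadjusted p under 0.05 in limma), where replica differences cancel by construction. Calls at an adjusted p numbered 343, with robust variances 363, with the OV against 3T3 prior 92, and in the common fit 90. Differences from unamplified replicas numbered 0 in the main fit and on probes with all 9 arrays, and 61 with weights by method. Probes over 2-fold numbered 126, with 86 for genes, 456 at 1.5-fold, and 119 to 200 when an array was left out (200 on hybridization 1 alone). The averaged CR of 0.607 was 0.313 by the median absolute deviation, 0.399 on probes of all replica arrays, 0.303 as deposited and 0.624 to 0.729 with 1 array. Apart from stated constructions, the cause was not tested.

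Of the 49 called probes named, 38 stayed called in the common fit and 42 with the OV against 3T3 prior, and 0 changed direction under the 6 refits or on either array alone. The lack of changes in direction is no separate evidence, because the called probes had the same sign on both arrays. The refits also left the averaged ratios unchanged or nearly so. No paired analysis was possible because the pair of dye-swapped arrays leaves 0 residual degrees of freedom with a block. Hybridization numbers also do not pair samples across methods. With 2 arrays of 1 pair of amplifications, nothing here measures how other IVTIII amplifications vary.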
